A study of Mus musculus with 4 samples.

Results

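Synaptic adhesion molecules are membrane proteins that reach across the synaptic cleft and hold the presynaptic and postsynaptic cell together, and synaptic scaffolds are the cytoplasmic proteins that gather them with receptors beneath the membrane. The binding of CTCF was described at 46 such genes, taken from a given list of names, of 21938 protein-coding genes in the annotation. All 46 names were found there. Each gene was read for summits, the peaks' highest points, within 1000 bp of any annotated start site (called promoter summits here), between its first and last base, and within 50 kb of either end. CTCF was mapped by chromatin immunoprecipitation and sequencing in the cerebral cortex of the left side of B6CASTF1/J mice, adult females of 2 months. As the name of the strain gives, these are F1 hybrids of a C57BL/6J and a CAST/EiJ parent. There were 4 libraries, 2 technical replicates each of pool I and pool J, and each pool combined 4 biosamples of cortex, so no value belongs to a single animal. There was 1 condition, 1 tissue and 1 antibody. In a bulk tissue, binding in fewer cells and weaker binding in each cell cannot be told apart, and peak lists carry no expression, so the labelled tissue could not be checked against its marker genes.

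CTCF is a zinc finger protein that binds a long, directional DNA motif. It is known for insulator function and for stopping cohesin, which places CTCF sites at the feet of chromatin loops, and it also binds near many promoters. Several of the genes described here are among the longest of the genome and are transcribed from alternative promoters, which gives neurexins, for example, their long and short forms. The median length was 193.3 kb for the 46 genes and 17.4 kb for all protein-coding genes.

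The peak lists were thresholded by the authors at an irreproducible discovery rate (IDR) of 0.05, the estimated share of peaks that do not repeat between the inputs. The list supported by both pools held 44672 summits, that of the pooled reads 50827, pool I 82131 and pool J 52658. Pool I thus had the longest list, which counts from it carry along. Strength is given as the percentile of a peak's signal value within its own list, since the unit of the signal was not stated. No result here carries a p-value, because the libraries of a pool were merged before peaks were called. Intervals, where given, are exact 95% binomial intervals and cover the counting of peaks only.

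The sequences under the promoter summits are given first, because some hold the CTCF motif and others do not. The motif learned from the strongest peaks had the 20-base consensus GTGGCCACCAGGGGGCGCTA. A match within 50 bp was found at 7 of the 19 promoter summits of the group, and those 7 are printed first, read along the strand of the motif with the match in capitals (GRCm38, windows of 60 bases, or of 30 where the bases belong to a noncoding exon).
Nrxn2, chr19:6418286-6418345, plus strand: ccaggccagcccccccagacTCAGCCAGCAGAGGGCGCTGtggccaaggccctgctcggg
Slitrk5, chr14:111674828-111674887, minus strand: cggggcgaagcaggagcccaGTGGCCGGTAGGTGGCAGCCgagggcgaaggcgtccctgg
Dlgap4, chr2:156720922-156720981, minus strand: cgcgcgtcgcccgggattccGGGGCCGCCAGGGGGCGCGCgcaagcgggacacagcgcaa
Dlgap4, chr2:156613153-156613182, plus strand: agcggGTCACCGGGAGGGGGCACCCgatcc
Homer3, chr8:70282954-70282983, plus strand: cgtagCTGGCCAGCAGGGGGCGCTGggcag
Cntnap1, chr11:101175086-101175145, minus strand: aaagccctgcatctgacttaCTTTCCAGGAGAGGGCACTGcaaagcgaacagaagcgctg
Lrrtm4, chr6:80018893-80018922, plus strand: ctgttTTCTCCAGCGGAGGGCACTCagtgt
The match at Homer3 had the highest score, 23.17, and shared 17 letters with the consensus. The match at Lrrtm4 scored 14.49 with 12 letters shared, above the threshold of 11.6 that 1% of flanking windows pass. The strongest promoter summit without any match lay at Nlgn1, and the bases around it are shown for comparison, all in lower case, on the plus strand.
Nlgn1, chr3:26153986-26154045: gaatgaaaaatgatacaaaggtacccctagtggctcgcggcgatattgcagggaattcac
The strongest 3 summits in or within 50 kb of these genes all had a match, and 2 of them lay in introns. The motif was learned from the strongest 1000 peaks of odd-numbered autosomes. Those peaks may include the summits of Ncam1 and Shank3 and the promoter summit of Nrxn2, so these matches are no independent check.
Lrrtm3, intron, chr10:64084561-64084620, plus strand: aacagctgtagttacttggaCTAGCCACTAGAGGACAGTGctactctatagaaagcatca
Ncam1, downstream of the gene, chr9:49489067-49489126, minus strand: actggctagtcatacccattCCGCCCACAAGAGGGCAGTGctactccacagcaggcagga
Shank3, intron, chr15:89530514-89530573, minus strand: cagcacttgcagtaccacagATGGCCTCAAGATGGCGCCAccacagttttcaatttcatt

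A promoter summit was found at 14 of the 46 genes (30.4%) in the list of both pools, against 20.8% of all protein-coding genes. The pooled reads gave 18 genes against a background of 23.8%, pool I gave 31 against 37.4%, and pool J gave 17 against 25.2%. The same 14 genes carried a promoter summit in all 4 lists. The list of both pools and that of the pooled reads were made from the same libraries as the single-pool lists. This agreement is therefore no independent check. A further 12 genes had promoter summits in the pool I list alone, at pool I percentiles between 3.6 and 39.3, and 15 had none in any list. These counts across lists were not made for all protein-coding genes, so whether they are usual was not tested. The shares above are not matched for the number of start sites, whose median was 3 in the group and 2 over all genes. In the list of both pools, 4 of 10 genes with 1 start site had a promoter summit (40.0%, against 17.96% of all such genes). With 2 to 4 start sites it was 4 of 23 (17.4%, against 22.3%), and with 5 or more 6 of 13 (46.2%, against 37.1%). The group's share was thus below its background at 2 to 4 start sites and above it otherwise. These shares rest on 4, 4 and 6 genes, and the differences were not tested.

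The presynaptic organisers are the neurexins, which bind neuroligins and other partners across the cleft, and the receptor phosphatases Ptprd and Ptprs. Nrxn2 had the strongest promoter summit of the whole group, at percentile 97.3 in the list of both pools, 97.7 in the pooled reads, 97.6 in pool I and 97.3 in pool J. It was near the top of every list. The summit lay 408 bp upstream of a start site of Nrxn2 and within 1000 bp of a start site of Gm14965. Nrxn3 had no promoter summit in the list of both pools, and its promoter summits in the other lists stood at percentile 14.3 in the pooled reads, 38.3 in pool I and 31.1 in pool J. Ptprs had promoter summits in pool I alone, up to percentile 39.3, and Ptprd had none in any list.

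The neuroligins and leucine-rich repeat proteins are mostly postsynaptic partners of these organisers, and 6 of 11 had a promoter summit in the list of both pools. Slitrk5, a ligand of receptor phosphatases, had the strongest of them, at percentile 94.8 in the list of both pools, 95.5 in the pooled reads, 93.9 in pool I and 97.0 in pool J. Nlgn1, the neuroligin of excitatory synapses, followed at 87.8, 89.3, 92.5 and 90.1 in those lists. Lrfn2, which binds postsynaptic scaffolds, stood at 73.6, 76.9, 87.0 and 79.3. The order of these 3 genes was the same in each list, with a summit of Slitrk5 above that of Nlgn1 and that above Lrfn2. The LRRTM genes, which encode neurexin ligands, were lower, with Lrrtm3 at 57.9, Lrrtm4 at 36.0 and Lrrtm1 at 22.2 in the list of both pools, while Lrrtm2 had none in any list. The summit of Lrrtm4 lay 1 bp from a start site. Nlgn2, the neuroligin of inhibitory synapses, and Slitrk1, Slitrk3 and Lrfn5 had promoter summits in pool I alone, at pool I percentiles of 38.3, 17.6, 9.0 and 30.8.

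The latrophilins are adhesion receptors coupled to G proteins that bind teneurins, and none of the 3 had a promoter summit in the list of both pools. Adgrl2 had one at percentile 2.9 in the pooled reads and 38.8 in pool I, while Adgrl1 and Adgrl3 had none in any list. Of the 9 contactins and contactin-associated proteins, which organise axons, nodes of Ranvier and synapses, 2 had promoter summits. Cntnap1, which encodes the paranodal protein Caspr, had them at up to percentile 50.9 in the list of both pools, 56.9 in the pooled reads, 73.6 in pool I and 56.6 in pool J, and those of the list of both pools also lay within 1000 bp of a start site of Ccr10. Cntn1 stood at 25.1, 34.2, 56.9 and 41.2 in those lists. Cntn4 had promoter summits in both single-pool lists, at percentile 28.4 in pool I and 11.6 in pool J, but none in the list of both pools. Cntn2, Cntn3, Cntn5, Cntn6, Cntnap2 and Cntnap4 had none in any list. Among the immunoglobulin cell adhesion genes, Cadm1, which encodes SynCAM, had promoter summits at up to percentile 54.5 in the list of both pools, 60.1 in the pooled reads, 70.9 in pool I and 73.5 in pool J. Cadm2 had one in pool I alone, at percentile 21.7, and Ncam1, Ncam2 and Cadm3 had none.

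Of the 14 scaffold genes, counted with Ctnnd2, which encodes delta-catenin, 4 had a promoter summit in the list of both pools and 12 in pool I. The highest were Dlgap4 at percentile 74.8 and Homer3 at 73.5 in the list of both pools. In pool I they stood at 83.7 and 84.2, and in pool J at 82.5 and 78.9. The pair was close in every list, and the order of the 2 genes was reversed in pool I. Homer1, whose products link metabotropic glutamate receptors to the scaffold, stood at 52.7 in the list of both pools, 72.2 in pool I and 61.3 in pool J. Dlgap1, which binds PSD-95 and the Shank proteins, stood at 39.6, 67.2 and 44.5 in the same order. The Shank genes, which encode the deepest layer of the postsynaptic scaffold, had promoter summits in pool I alone, at pool I percentiles of 17.2 for Shank1, 24.2 for Shank2 and 3.6 for Shank3. Dlg1, Homer2 and Dlg2 likewise had theirs in pool I alone, at 34.4, 4.0 and 7.4. Dlgap3 had promoter summits at percentile 23.5 in the pooled reads, 55.8 in pool I and 8.7 in pool J, and Ctnnd2 at 7.3 in the pooled reads and 42.5 in pool I. Dlg4, which encodes PSD-95, and Dlgap2 had none in any list.

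**Figure D1:**
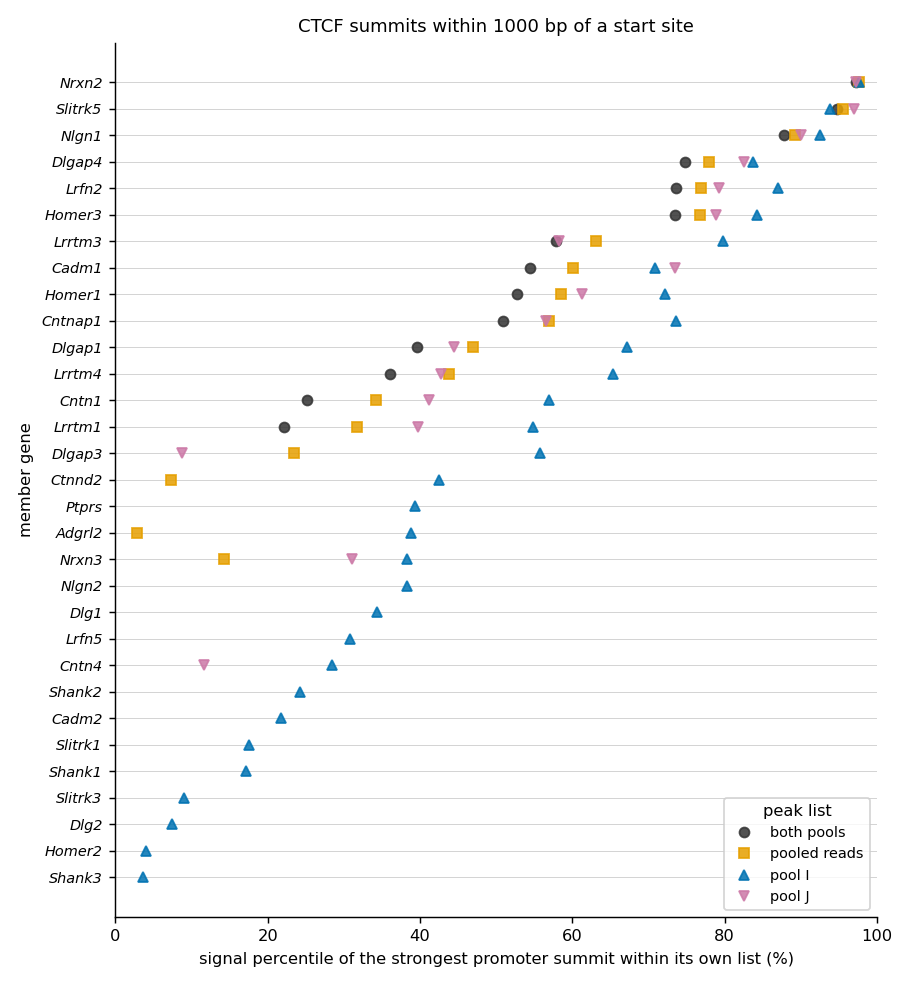
Strongest promoter summit of each gene of the group that has one in any list. The horizontal axis gives the signal percentile within the summit's own list, and symbols mark the 4 lists. The 14 genes with a symbol for both pools have all 4 symbols, and 12 genes at the bottom and middle have the pool I symbol alone.

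Alternative start sites of the same gene differed in the list of both pools. Of the 46 genes, 27 had start sites that fell into several groups over 1000 bp apart, and in 7 of these some groups had a promoter summit and others had none. This count was not made over all protein-coding genes, so it is not read as a trait of the group. In Nlgn1 the summit belonged to a start site 179.2 kb into the gene, 709 bp from it, while the groups at the 5′ end and at 198.7 kb had none in that list. In pool I the group at the 5′ end had 2, up to pool I percentile 25.9. In Cntn1 it belonged to the group 110.2 kb from the first, and the nearest summit to the first group was 81588 bp away in the list of both pools, while pool I had 1 at the first group, at percentile 0.9. Dlgap4 had a summit at its first group (percentile 57.1) and at the group 107.3 kb further on (74.8), but none at the group between them. Those summits also lay within 1000 bp of start sites of the genes Gm14169 and 4930405A21Rik.

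In Nrxn2, Dlgap1, Homer1 and Homer3 the summit was at the first group alone. The other groups of Nrxn2, at 9.2 kb and 79.1 kb, had their nearest summits 9600 and 5580 bp away. Dlgap1 has 5 groups over 592.5 kb, and the 4 after the first had nearest summits from 5092 to 34210 bp away. Homer1 has a group 4.3 kb after the first with its nearest summit 4153 bp away, and Homer3 a group 2.4 kb after the first with its nearest summit 1685 bp away. In 6 of the 7 genes the group with the highest ratio of observed to expected CpG had a summit. Nrxn2 was the exception, with 0.615 at the first group and 0.901 at the next. In Cntn1 the highest ratio was 0.476, close to the 0.471 of the first group. Dlgap4 had summits at the groups with 0.963 and 0.912. No such count over all protein-coding genes is set beside these.

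Most start-site groups with a promoter summit were CpG-rich. A ratio of at least 0.6 in the 500 bp to each side was found at 34 of 93 groups, and 12 of the 34 had a promoter summit. Of the other 59 groups 3 had a promoter summit, at Cntn1, Cntnap1 and Lrrtm4. Counted by gene, 11 of 29 CpG-rich genes of the group (37.9%) had a promoter summit, against 31.3% of all CpG-rich protein-coding genes, and 3 of 17 CpG-poor genes (17.6%), against 9.997%. All 9 contactin and contactin-associated genes were CpG-poor. Gene length gave another split. A promoter summit was found at 4 of 16 genes of the group under 100 kb (against 19.4% of all genes of that length), 7 of 17 of 100 to 500 kb (41.2%, against 30.8%) and 3 of 13 over 500 kb (23.1%, against 39.1%).

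**Figure D2:**
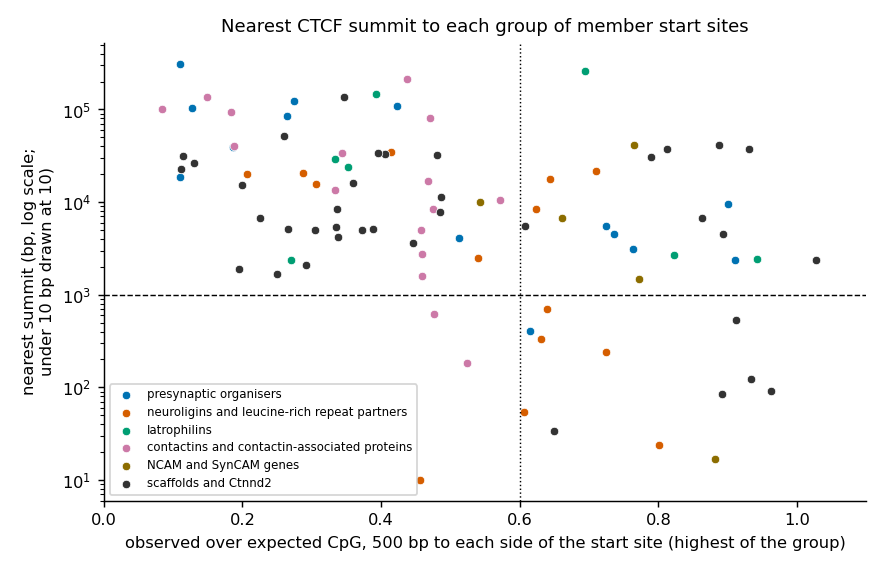
Distance from each group of start sites to the nearest summit of the list of both pools (vertical, bp, log scale) against the observed over expected CpG ratio (horizontal), coloured by gene family. Points under the dashed line at 1000 bp have a promoter summit, and 12 of those 15 points lie right of the dotted line at a ratio of 0.6.

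The start sites above are those of the basic transcript set of GENCODE. With every transcript of the full annotation, a choice made after the values were seen, 373 start sites replaced 162 and 19 of the 46 genes (41.3%) had a promoter summit, against 25.7% of all genes. The added genes were Cntn2, Ptprd, Ptprs, Shank1 and Shank3. At Shank3, whose loss in humans causes Phelan-McDermid syndrome, the added summit was the intronic one printed above, at percentile 99.7, and at Shank1 and Ptprs it stood at 89.1. The remaining ones were lower, at 48.9 for Cntn2 and 47.9 for Ptprd.

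Inside the genes, 40 of 46 had at least 1 summit in the list of both pools (87.0%, against 45.8% of all protein-coding genes), with 237 summits in all. By length the shares were closer: 11 of 16 genes under 100 kb (68.8%, against 39.8%), 16 of 17 of 100 to 500 kb (94.1%, against 91.7%) and 13 of 13 over 500 kb (100%, against 97.8%). A summit in the gene or within 50 kb of it was found at all 46, against 86.4% of all protein-coding genes.

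The 6 genes without a summit inside were Cntn6, Lrrtm2, Nlgn2, Slitrk1, Slitrk3 and Slitrk5. Cntn6, a contactin expressed in neurons, is 370.6 kb long, while the other 5 are between 5.4 and 14.7 kb. In the single-pool lists Cntn6 had 1 summit in pool I and 0 in pool J. Slitrk1 had 1 in pool I and 1 in pool J, and the other 4 genes had 0 in each.

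Summits per 100 kb of gene fell with length, so densities are set beside those of genes of like length. Over the group there were 1.12 summits per 100 kb, against 2.29 over all protein-coding genes. Under 100 kb the group had 6.53 per 100 kb and all such genes 3.10. Between 100 and 500 kb the group had 1.66 and all such genes 1.97, and over 500 kb the group had 0.816 and all such genes 1.19. On these totals the group was denser than its length class among genes under 100 kb and sparser in both longer classes. Length was not matched within a class. The median length was 25.4 kb in the group and 14.2 kb over all genes under 100 kb. It was 290.8 and 159.2 kb in the middle class, and 965.5 and 730.3 kb over 500 kb. Over 500 kb the median density per gene was 0.881 in the group and 0.917 over all such genes. Each gene was also ranked among the 500 protein-coding genes nearest in length, by the percentage of them with a lower density (ties split evenly). The median rank was 41.1% for the 46 genes and 42.7% over all genes. By length class it was 77.9% for the group under 100 kb (all such genes 42.6%), 38.4% between 100 and 500 kb (49.6%) and 38.4% over 500 kb (40.8%). Of the 46, 20 were above 50%, against 8079 of 21938 over all genes, where genes without a summit share tied ranks. Only 230 genes are over 500 kb, so the 500 nearest to such a gene include shorter genes. The median rank of those 230 genes was 40.8%.

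**Figure D3:**
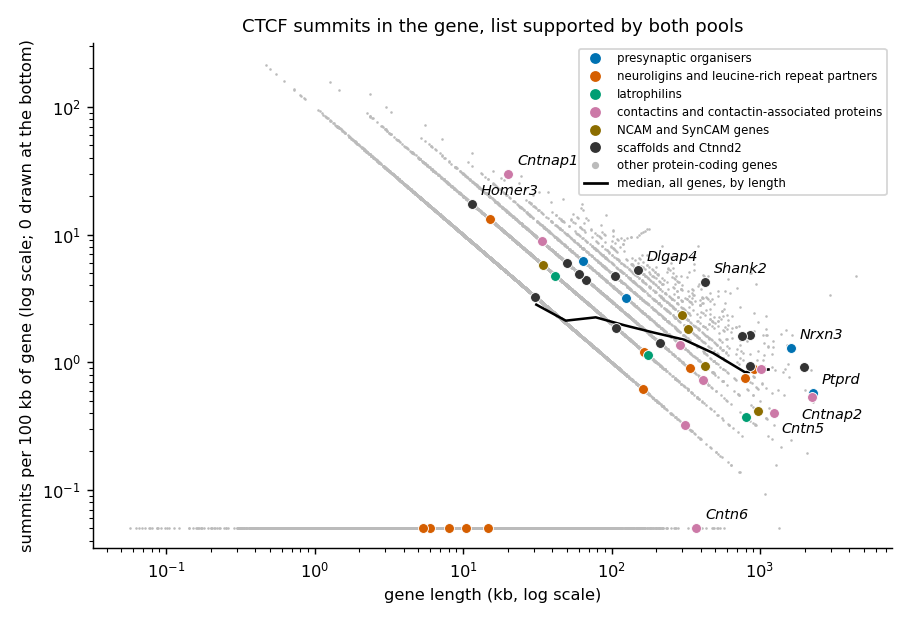
Summits per 100 kb in the list of both pools (vertical, log scale, with genes without a summit drawn at the bottom) against gene length (horizontal, log scale). Coloured points are the 46 genes by family, grey points the other protein-coding genes, and the line the median by length where it is above 0. Cntnap1 and Shank2 lie high for their length, and Cntn5 and Cntnap2 lie under the line's right end.

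The densest gene was Cntnap1, with 6 summits in 20.2 kb (29.7 per 100 kb) and a rank of 100% among genes of like length. Its summits at chr11:101181072 and chr11:101181283 lay in overlapping peaks, and the latter stood at percentile 0.253 without a motif match. Cntnap1 had 5 summits in the pooled reads, 6 in pool I and 6 in pool J. Homer3 followed with 17.3 per 100 kb and Lrrtm1 with 13.2, each with 2 summits in every list. Cntn2, which encodes the axonal protein TAG-1, had 3 summits at 8.87 per 100 kb in the list of both pools, 4 summits in pool I and 3 in pool J. Next came Ptprs at 6.24, Shank1 at 5.96 and Cadm3 at 5.81. Dlgap4 at 5.31, Shank3 at 4.95 and Adgrl1 at 4.78 completed the 10 densest. Of these 10, Dlgap4 is the longest at 150.7 kb, with 8 summits in the list of both pools, 10 in the pooled reads, 12 in pool I and 10 in pool J. Shank2, a scaffold gene of 422.6 kb, held 18 summits and ranked at 97.4% among genes of like length, with 35 summits in pool I and 23 in pool J.

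Ranks are given by family as a description, without a test between families. The scaffolds with Ctnnd2 had a median rank of 73.8%, with 10 of 14 above 50% and 0 at or below 25%, where all protein-coding genes had 8079 and 2821 of 21938. The contactins and contactin-associated genes had a median of 25.4%, with 2 of 9 above 50% and 4 at or below 25%. Within the contactins, Cntnap1 and Cntn2 were short and high, while Cntn3, Cntn4, Cntn5 and Cntnap2, of 410.4 to 2244.9 kb, ranked at 25.4%, 38.4%, 13.6% and 18.6%. Cntn1 ranked at 43.4%, and Cntnap4 (6.2%) and Cntn6 (1.7%) had the lowest ranks of the 46 genes. The neuroligin and leucine-rich repeat family had 1 of 11 above 50%, which was Lrrtm1 at 91.2%, and 5 of the 11 are short genes without a summit, at tied ranks.

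The 13 longest genes, all over 500 kb, were compared with the 230 protein-coding genes of that length, a comparison added after the values were seen. Their median rank was 47.2%, and 4 of the 13 were above 50%. Dlgap1 (1.64 summits per 100 kb, rank 79.9%), Dlgap2 (1.60, 78.2%), Nrxn3 (1.30, 67.2%) and Ctnnd2 (0.934, 51.1%) were in the upper part. Adgrl3 (0.373 summits per 100 kb), Cntn5 (0.402, 18.3%) and Cadm2 (0.414, 19.2%) had the lowest ranks of the 13. Nrxn3 held 21 summits in the list of both pools, 22 in the pooled reads, 37 in pool I and 25 in pool J, the most of any gene in the group except in pool I, where Dlg2 and Dlgap1 (39) held more. Dlg2, which encodes PSD-93, held 18, 20, 45 and 23 in those lists.

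Long stretches without a summit were found within these genes. In Cntnap2, one of the longest mouse genes at 2244.9 kb, 1219.3 kb (54.3% of the gene) held none, although 12 summits lay elsewhere in it. Cntn4 had 541.2 kb without a summit (53.0%), Cntn5 525.2 kb (42.2%) and Nrxn3 523.4 kb (32.5%). The median of the longest stretch was 33.7% of the gene for the 13 genes and 39.4% for all genes over 500 kb, while in length it was 379.1 kb for the 13 genes and 302.6 kb for all genes over 500 kb. The 13 genes ranged from 19.4% to 54.3%. In genes of 100 kb and over, the first 20% of the length held 47 of 206 summits of the group (22.8%, interval 17.3 to 29.2) and the last 20% held 44 (21.4%, 15.97 to 27.6), against 22.2% and 23.6% over all such genes.

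The annotated gene can begin far before the start sites used here. In Ptprd the gene record runs 1617.7 kb upstream of the first start site of the basic set, and 11 of its 13 summits lay there. In Cntnap1 the same stretch is 5.5 kb and held 2 of its 6 summits.

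**Figure D4:**
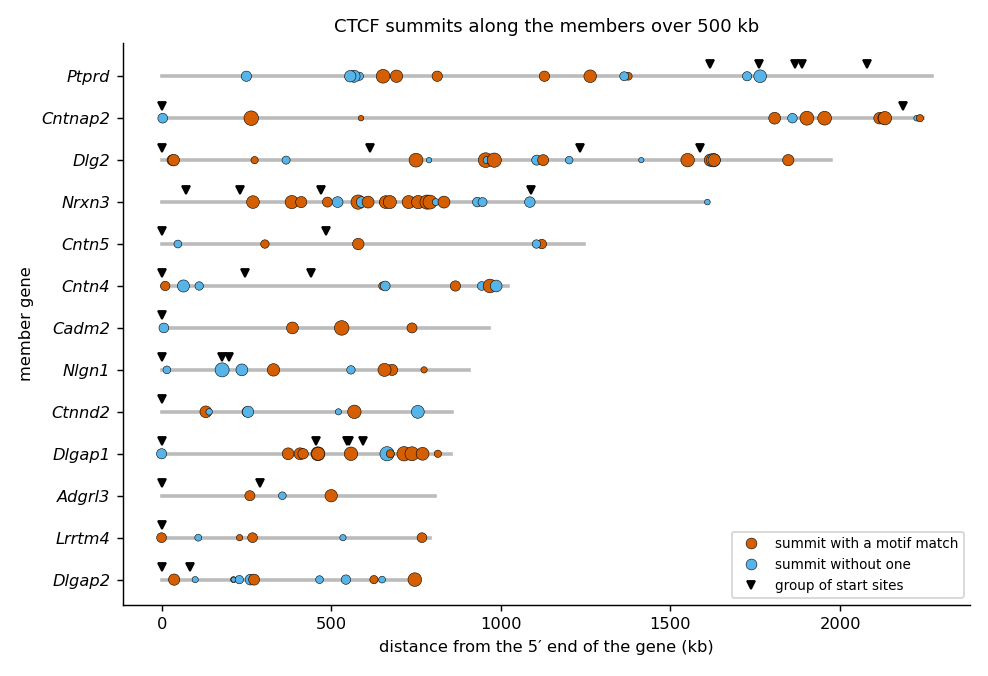
Summits of the list of both pools along the 13 genes over 500 kb, by distance from the 5′ end of the annotated gene in kb. Larger circles have a higher signal percentile, colour marks a motif match within 50 bp, and triangles mark groups of start sites. Cntnap2 has an empty stretch of 1219.3 kb, and most summits of Ptprd lie before its start sites.

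The strongest 10 summits in or within 50 kb of these genes all stood above percentile 98 of the list of both pools. An intronic summit of Lrrtm3, 5691 bp from its start site, stood at percentile 99.86, with 99.83 on the pool I values and 99.76 on the pool J values. A pair downstream of Ncam1 stood at 99.85 and 99.11, the intronic summit of Shank3 at 99.70, and a summit downstream of Shank2 at 99.32. Dlgap3 had 2 downstream, at 99.15 and 98.82. The remaining 3 were a downstream summit of Nrxn2 at 98.74, an intronic one at 98.33 and an intronic one of Dlgap4 at 98.24. All 10 had a motif match and were called in both pools. None lay within 1000 bp of a basic start site of its own gene in the group. The summits of Ncam1, Shank2, Shank3 and Nrxn2 lie on odd-numbered autosomes, from whose strongest peaks the motif was learned. Their matches are therefore no independent check, while those of Lrrtm3, Dlgap3 and Dlgap4 lie on even-numbered autosomes.

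Summits of the group spanned the range of strength. The median percentile of the 237 summits inside the genes was 46.1 in the list of both pools, against 45.8 for all summits in protein-coding genes. There were 19 above percentile 90 (8.02%, interval 4.90 to 12.2). At promoters the median was 52.7 for the 19 summits of the group and 44.9 for the 4729 of all protein-coding genes. The range within a gene was wide: in Dlg2 from percentile 1.1 to 97.3, and in Shank3 from 6.8 to 99.7.

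By place, 222 of 245 summits in the genes or at their promoters were intronic (90.6%, against 74.1% over all protein-coding genes). Another 19 were at promoters (7.76%, against 18.7%) and 4 in coding exons. These shares are not matched for gene length, whose median was 193.3 kb in the group and 17.4 kb over all genes. A motif match was found at 135 of the 237 summits inside the genes (57.0%, interval 50.4 to 63.4), against 63.8% of all summits in protein-coding genes and 65.9% of the whole list. In the windows 1000 bp to each side of the group's summits the share was 0.211%, against 0.936% around all summits in protein-coding genes. At promoter summits the share was 7 of 19 in the group (36.8%, 16.3 to 61.6) and 33.0% over all protein-coding genes.

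For a comparison of like with like, summits in introns of genes of 100 kb and over were set side by side, with the list divided by signal into 3 equal parts after the values were seen. In the weakest part, 27 of 72 summits of the group had a match (37.5%, 26.4 to 49.7), against 53.95% over all such genes. In the middle part the shares were 58.8% (46.2 to 70.6) and 67.0%, and in the strongest 82.5% (70.1 to 91.2) and 83.1%. Summits on a base that the genome sequence marks as repeat made up 13.2% of the group's summits in these introns and 21.7% of those of all such genes. The part of repeats in the motif share was not tested. In the group, the strand of the match ran with the gene at 58 of 131 summits inside genes and outside promoters (44.3%, 35.6 to 53.2). No strand share over all protein-coding genes is set beside it, so a difference from other genes was not tested.

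Pool I and pool J were 2 pools of the same tissue, and their lists differed in length. Of the 488 pool I summits inside the 46 genes, 275 lay in peaks that overlapped a pool J peak by at least 1 bp (56.4%, 51.8 to 60.8), against 63.1% of all pool I peaks. In the other direction, 281 of 290 pool J summits of the group lay in peaks that overlapped a pool I peak (96.9%, against 97.5%). Sharing followed strength: it was 5.98% (2.44 to 11.9) in the weakest 20% of pool I peaks, against 11.6% over all peaks there, and 100% of 76 in the strongest 20%, against 99.99%. When pool I was reduced to its strongest peaks, as many as pool J has, 251 of 287 of the group's were shared (87.5%, 83.1 to 91.1), against 88.8%. The 10 strongest pool I summits without pool J overlap lay in introns of Dlgap4 (2 summits, at pool I percentiles of 59.6 and 59.5), Ctnnd2, Lrrtm4, Cadm3, Dlg2 (2 summits), Cntnap2, Nrxn2 and Adgrl3 (46.5). All 10 overlapped a peak of the ranked pool J list, which holds peaks that miss the threshold.

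The signal values of the 2 pools at the 237 summits had a median log2 ratio (pool I over pool J) of 1.11 ± 0.38 (SD over peaks), against 1.09 ± 0.39 over all 44672 peaks. The median difference sits on values whose scale differs between the pools, so only the distance of a peak from it is read. The 5 peaks farthest from it were all higher in pool I. They were a coding exon peak of Cntnap1 and intronic peaks of Lrfn2, Ptprs, Cntn4 and Dlgap4. The Cntnap1 peak stood at percentile 68.45 on the pool I values and 20.35 on the pool J values. Its summit, chr11:101181283, lay outside the pool I interval that had been matched to it, which was also matched to a neighbouring peak. For the other 4 the summit lay inside both matched intervals. The intronic peak of Lrfn2 stood at 39.74 on the pool I values and 15.47 on the pool J values and was the only remaining summit of the group more than 2-fold from the median. Each pool gave a single value, so these differences have no replicate check.

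**Figure D5:**
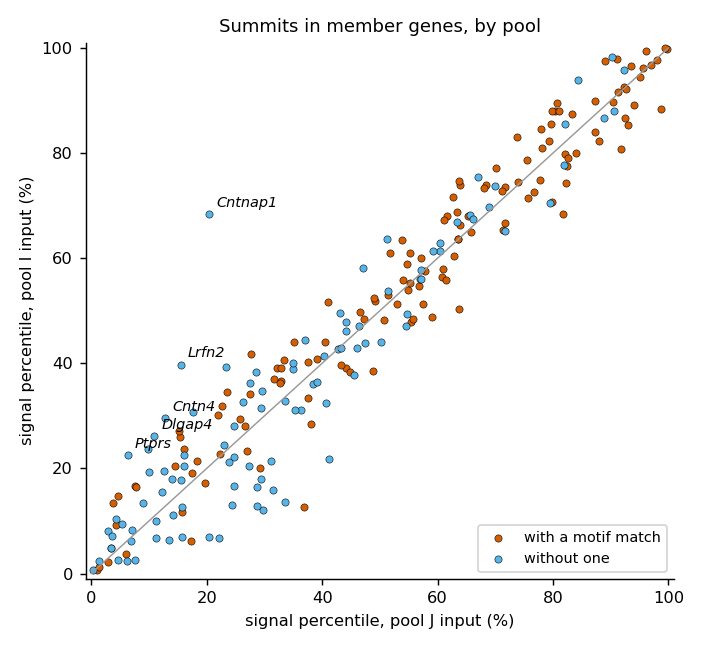
Signal percentile on the pool I values (vertical) against the pool J values (horizontal) of the 237 summits inside the 46 genes, coloured by motif match. Points lie along the diagonal, and the 5 peaks farthest from the median ratio are labelled, with Cntnap1 farthest above it.

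A further 60 genes of synaptic adhesion and scaffolding that are not in the group, such as teneurins, cerebellins and brain angiogenesis inhibitor receptors, were read in the same way. A promoter summit was found at 27 of the 60 (45.0%, against 20.8% of all protein-coding genes) in the list of both pools. A summit in the gene was found at 50 (83.3%, against 45.8%). These shares are not matched for length, whose median was 96.9 kb for the 60 genes and 17.4 kb over all genes. The median rank of the 60 among genes of like length was 56.3%. It was 71.1% for the 30 under 100 kb, 57.6% for the 15 of 100 to 500 kb and 19.8% for the 15 over 500 kb. For all protein-coding genes of these lengths the median ranks were 42.6%, 49.6% and 40.8%. The densest for its length was Ntng2, which encodes netrin-G2, with 8 summits in 58.5 kb and a rank of 99.8%. The genes with the lowest rank were Cntnap5c (3.8%), Il1rapl2 (4.0%) and Cntnap3 (4.1%). Cntnap3 and Il1rapl2 nevertheless had a promoter summit.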

How the data were processed

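CTCF ChIP-seq peak lists on mm10 were used, 1 each for pool I, pool J, both pools and the pooled reads of both, thresholded by IDR, with the ranked lists before the threshold. The score deposited by the authors is a scaled IDR. The signal value deposited by the authors has no stated unit, so ranks within a list were used, and a log2 ratio only between pools at matched peaks. Libraries of a pool were merged before peak calling, per the deposited notes; which aligner and caller made them is not given in the sources used here. Read depth is unknown. In the ranked list of both pools, the columns of each pool were told by intervals identical to those of that pool's own ranked list.

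Summits were placed on GENCODE M21 basic genes (chromosome lengths of GRCm38.p6 hold all peaks). The motif was learned from 1000 strong peaks of odd autosomes; functions were tested on simulated data. Tools were pysam 0.24.0, SciPy 1.17.1, matplotlib 3.10.9, pandas 2.3.3 and numpy 2.4.6 under Python 3.11.15. Sequences were read from the RefSeq GRCm38.p6 genome. The members and lists were chosen with earlier results of these data known. Genes were named by rule: all with a promoter summit, the 10 densest, those without a summit, the 10 strongest summits, those with mixed start sites, the 5 extremes between pools and the 10 strongest pool I summits without pool J overlap. Further genes were named after their values were seen.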

Additional observations from a re-analysis of the deposited data

How the results depend on the processing

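Of the 41 recomputed values of the main results, 32 stayed within 1.5 times the count or within the interval of the value reported. Of the other 9, 4 came from the choice of list: the pool I list gave 31 genes with a promoter summit in place of 14, 488 summits inside the genes in place of 237, and a motif share of 41.2% in place of 57.0%, and the pool J list a motif share of 49.3%. The background over all genes or peaks moved with the list too. A promoter window of 5000 bp gave 29 genes (63.0%, against 38.8% of all genes). A stricter motif score, which 0.1% of flanking windows pass, gave 10.5%. At that score the share was 12.5% of all summits in protein-coding genes and 13.5% of the whole list. Sharing of pool I with pool J was 47.1% by overlap of 50% of both peaks, 76.4% with the ranked pool J list and 87.5% for the strongest pool I peaks. An IDR of at most 0.01 left 14 genes with a promoter summit and 225 summits. Ranks among 250 or 1000 genes of like length left the range counted as unmoved in 22 of 92 cases, by up to 11.0 points (Nrxn3). Nrxn3 ranked at 67.2% among 250 genes, 58.4% among 500 and 47.4% among 1000. Only 230 protein-coding genes are over 500 kb, so for such genes the larger sets take in more genes of under 500 kb. The part of this in the changes of rank was not tested. Each pool's list stands for leaving out the other pool; single libraries could not be left out. No paired analysis was possible because the lists hold no value per library. Read depth is unknown, so a missing peak is only not called at these depths.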

Other observations

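Of the 15 genes without a promoter summit in any thresholded list, 10 had a summit within 1000 bp of a start site in the ranked list of both pools, with an IDR above the threshold: Adgrl1, Adgrl3, Cadm3, Cntnap2, Dlg4, Dlgap2, Lrrtm2, Ncam1, Ncam2 and Ptprd. The lowest IDR among them was 0.229, at Adgrl3, a latrophilin gene of 805.0 kb. The other 5, Cntn2, Cntn3, Cntn5, Cntn6 and Cntnap4, had no ranked summit there, and all 5 encode contactins or a contactin-associated protein. That family was picked out after the values were seen, and all 9 of its genes in the group were CpG-poor. The part of CpG in this was not tested. Neither count was made over all protein-coding genes. Ncam2, which encodes a neural cell adhesion molecule, had its nearest summit 1471 bp from its start site, and Cntnap4 had its nearest summit at 1605 bp, so both gained a promoter summit with a window of 2000 bp, as did Dlg4 at 1900 bp.

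The 126 summits in the 50 kb around the genes had a motif match at 62.7% (interval 53.6 to 71.1), against 65.9% of the whole list. In the downstream stretch 25 of 41 matches ran along the strand of the gene (61.0%, 44.5 to 75.8). In the upstream stretch 17 of 35 did so (48.6%, 31.4 to 66.01). Neither strand share has one over all protein-coding genes beside it.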
